A study of Mus musculus with 4 samples.

Results

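Peaks of open chromatin at the genes of the PGC-1, ERR and PPAR regulatory circuit were compared among 4 mouse muscles. The circuit was taken as 10 genes: the coactivators Ppargc1a and Ppargc1b, the estrogen-related receptors Esrra, Esrrb and Esrrg, the peroxisome proliferator-activated receptors Ppara, Ppard and Pparg, and the mitochondrial regulators Nrf1 and Tfam. A peak was counted for a gene when the deposited annotation named that gene as its nearest one. Of the 17157 genes with a peak in any muscle these were 10, and they held 150 of the 120839 peaks.

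Open chromatin was mapped by ATAC-seq, in which the transposase Tn5 cuts accessible DNA and tags it for sequencing, in muscles of wild-type C57BL/6 mice. The muscles were the fast, glycolytic extensor digitorum longus (EDL) and quadriceps (Quad), the slow, oxidative soleus (Sol), and the continuously working diaphragm (Dia). The methods of the study describe male C57BL/6J mice bought at 7 to 8 weeks of age. Each muscle had 1 library, labelled as pooled, with no separate replicates analysed here, so no difference between muscles was tested and every value describes these libraries.

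PGC-1 coactivators bind no DNA themselves but dock on transcription factors, among them the ERR and PPAR nuclear receptors, and raise the transcription of genes for mitochondria and fatty acid oxidation. NRF1 is a transcription factor of nuclear genes for mitochondrial proteins, and TFAM packages and transcribes mitochondrial DNA. In muscle, Ppargc1a is known for its induction by endurance exercise and for its promotion of oxidative fibres, and its promoter is a textbook target of CREB and MEF2.

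To show what these regions look like, 10 stretches of at most 200 bp around peak centres are given from the RefSeq GRCm38.p6 sequence, the assembly behind mm10, on the plus strand. They stand for the Ppargc1a promoters, for regions listed in EDL and Quad alone or in Sol and Dia alone, for regions shared by all 4 lists, and for regions listed in Sol alone. The Ppargc1a main promoter, cut where its annotated untranslated exon begins, and both regions listed in Sol alone were chosen after their values were seen. Capitals mark matches, on either strand, to the cAMP response element TGACGTCA (CRE), the nuclear receptor monomer word AAGGTCA (NR), the MEF2 word, the AP-1 word TGAGTCA, the E-box CAGCTG and the NFAT word TGGAAA.
Ppargc1a main promoter, all 4 lists, chr5:51553923-51554031: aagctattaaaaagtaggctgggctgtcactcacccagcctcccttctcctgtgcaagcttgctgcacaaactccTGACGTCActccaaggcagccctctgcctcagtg
Ppargc1a upstream promoter, EDL, Quad and Sol, chr5:51567867-51568066: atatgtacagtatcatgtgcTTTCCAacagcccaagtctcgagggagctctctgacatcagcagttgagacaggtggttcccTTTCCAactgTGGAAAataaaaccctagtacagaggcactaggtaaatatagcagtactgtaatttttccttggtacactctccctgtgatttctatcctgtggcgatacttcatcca
Ppargc1a intron 2, EDL and Quad, chr5:51531400-51531599: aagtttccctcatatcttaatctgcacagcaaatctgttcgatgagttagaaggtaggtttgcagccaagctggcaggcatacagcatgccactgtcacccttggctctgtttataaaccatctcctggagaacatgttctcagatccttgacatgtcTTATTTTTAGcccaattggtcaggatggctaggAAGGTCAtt
Ppargc1a intergenic, Sol and Dia, chr5:51439948-51440147: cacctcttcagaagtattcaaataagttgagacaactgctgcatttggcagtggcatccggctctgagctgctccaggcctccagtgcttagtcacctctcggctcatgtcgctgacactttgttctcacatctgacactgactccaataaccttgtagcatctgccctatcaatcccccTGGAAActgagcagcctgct
Esrrb intron 3, all 4 lists, chr12:86498781-86498980: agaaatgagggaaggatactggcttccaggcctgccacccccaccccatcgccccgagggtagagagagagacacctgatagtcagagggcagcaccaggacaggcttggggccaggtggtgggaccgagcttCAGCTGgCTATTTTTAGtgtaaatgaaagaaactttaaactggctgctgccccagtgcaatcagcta
Esrrb intron 2, EDL and Quad, chr12:86483470-86483669: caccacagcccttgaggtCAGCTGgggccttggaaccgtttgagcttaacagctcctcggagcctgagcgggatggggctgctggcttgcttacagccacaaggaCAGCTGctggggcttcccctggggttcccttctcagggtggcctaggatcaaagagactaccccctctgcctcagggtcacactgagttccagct
Esrrg intron 2, Sol alone, chr1:187910842-187911041: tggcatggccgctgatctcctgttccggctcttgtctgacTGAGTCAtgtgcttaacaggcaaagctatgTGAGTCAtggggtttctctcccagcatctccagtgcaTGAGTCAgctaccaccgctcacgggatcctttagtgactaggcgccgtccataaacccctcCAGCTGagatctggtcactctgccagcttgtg
Ppara promoter flank, Sol alone, chr15:85734488-85734687: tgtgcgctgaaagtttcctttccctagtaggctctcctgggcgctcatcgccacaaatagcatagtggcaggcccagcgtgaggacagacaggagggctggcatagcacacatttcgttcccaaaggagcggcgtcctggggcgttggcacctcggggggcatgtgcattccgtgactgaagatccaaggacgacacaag
Ppara intron 2, all 4 lists, chr15:85756748-85756947: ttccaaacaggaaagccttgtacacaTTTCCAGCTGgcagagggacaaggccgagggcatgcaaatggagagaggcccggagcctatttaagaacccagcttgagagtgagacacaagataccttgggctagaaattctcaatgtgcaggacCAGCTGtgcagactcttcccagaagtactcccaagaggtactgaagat
Pparg exon 6, all 4 lists, chr6:115463066-115463265: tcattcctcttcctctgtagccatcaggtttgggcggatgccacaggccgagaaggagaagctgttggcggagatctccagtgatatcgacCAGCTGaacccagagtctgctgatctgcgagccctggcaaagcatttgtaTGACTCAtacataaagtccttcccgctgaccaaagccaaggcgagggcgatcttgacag

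In the Ppargc1a main promoter, the stretch with the CRE lay upstream of the start site, and the CRE, at -80 bp, fell within the peak windows of Quad, Sol and Dia. The Ppargc1a intron 2 region of EDL and Quad held a MEF2 word and an NR word. The Esrrg region listed in Sol alone held 3 AP-1 words, and the Ppara flank held none of the words searched. In Ppara intron 2 an NFAT word and an E-box overlapped, which the run of 10 capitals shows.

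The deposited score of a peak is a tag count scaled to library size, so each peak is described by the percentile of its score within its own list, where 100 is the highest. The list of Quad, with 40337 peaks, was the longest, and those of EDL, Sol and Dia held 30136, 28784 and 21582. Depth was inferred from the steps between scores at 78.1 M (mega) tags in Quad and 99.3 to 105 M in the others, and the lowest peak held 25 tags in Quad and 32 to 36 in the others. Threshold and peak width, 188 bp in Quad and 206 to 232 bp in the others, were set in each library, so a missing peak means only that none was called there. All 6 skeletal muscle markers had a peak in EDL, Quad and Sol, and 5 did in Dia, where Myod1 had none. The 4 slow-fibre markers (Myh7, Myl2, Myl3, Csrp3) held 11 peaks in Sol against 2, 2 and 3 in EDL, Quad and Dia, and the 4 fast-fibre markers (Myh4, Actn3, Mybpc2, Pvalb) held 9 in Quad against 4, 3 and 3 in EDL, Sol and Dia. Markers of other cell types also held peaks: the 4 endothelial markers held 26, 28, 27 and 16 peaks in EDL, Quad, Sol and Dia, the 5 adipocyte markers 5, 4, 2 and 5, the 4 fibroblast markers 5, 7, 5 and 1, and the 4 leukocyte markers 2, 3, 1 and 0. The adipocyte genes Adipoq and Cidec had a peak in Dia alone, and the fibroblast gene Lum and the leukocyte genes Cd68 and Itgam had none in any list. The part of these cells in the peaks described here was not tested.

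Of the regulators' peaks, 33 were in EDL, 44 in Quad, 29 in Dia and 44 in Sol. Quad and Sol thus held equal numbers, although the whole Quad list was longer. Summed over the lists Ppargc1a held the most, 37, with 6 peaks in EDL, 11 in Quad, 9 in Dia and 11 in Sol. Such a number was uncommon in each list: at least as many peaks were held by 5.02% of genes in EDL, 1.80% in Quad, 0.204% in Dia and 0.525% in Sol. Esrrg followed with 27 (5, 8, 10 and 4 peaks in EDL, Quad, Sol and Dia), and 0.816% of genes had as many in Sol. In EDL Esrrb, with 6 peaks, equalled Ppargc1a. At the other end Esrra and Nrf1 had a single peak in each list, and Ppargc1b had 1 in EDL, 2 in Quad, none in Dia and 1 in Sol.

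**Figure D1:**
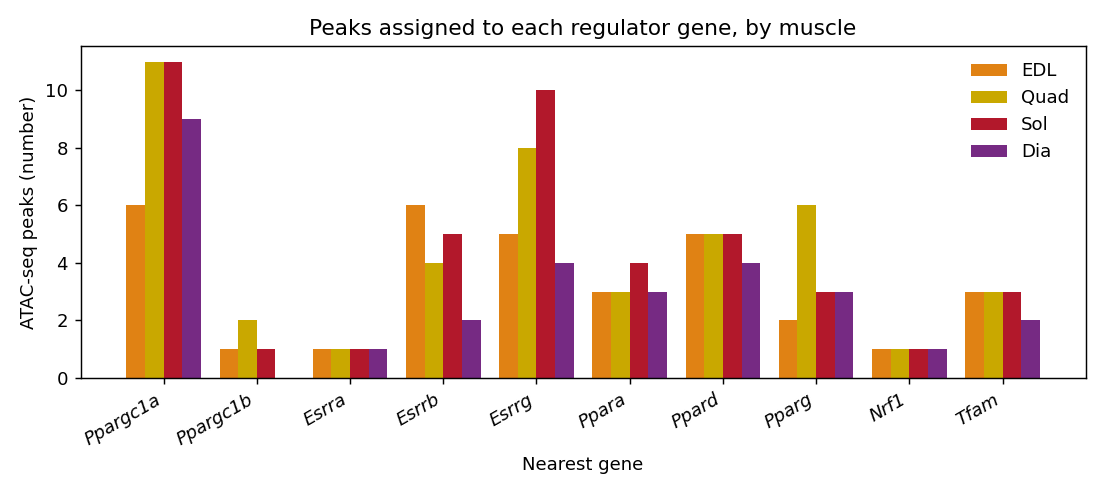
Number of ATAC-seq peaks (vertical axis) whose nearest gene was each of the 10 regulator genes (horizontal axis) in EDL, Quad, Sol and Dia, 1 library each. Ppargc1a and Esrrg carried the tallest bars of Quad and Sol, and Esrra and Nrf1 had 1 peak in every muscle.

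Set against the soleus, 3 of the 10 genes (Esrrb, Esrrg and Ppara) had more peaks in Sol than in Quad, a direction found in 13.0% of all genes with a peak in either list, and 2 (Ppargc1b and Pparg) had more in Quad, found in 47.6%. Against EDL, 4 (Ppargc1a, Esrrg, Ppara and Pparg) had more in Sol and 1 (Esrrb) had more in EDL, where all genes gave 23.5% and 27.9%. Against Dia, 7 had more in Sol, with a background of 40.0%, and none had more in Dia, with a background of 14.2%. With each list cut to its 20000 highest-scored peaks, 5 regulator genes had more peaks in Sol than in Quad and 1 had more in Quad, against 23.4% and 23.1% of all genes. Ppargc1a then kept 4 peaks in EDL, 2 in Quad, 9 in Dia and 6 in Sol, so its equal counts in Quad and Sol were those of the full lists. Esrrg kept 4, 2, 6 and 4 in EDL, Quad, Sol and Dia. Counted instead over the gene body and the 10 kb before it, 4 regulator genes (Ppargc1a, Ppargc1b, Ppard and Pparg) had more peaks in Quad and 3 (Esrrb, Esrrg and Ppara) had more in Sol, against 40.8% and 9.63% of protein-coding genes with a peak in either list. The backgrounds were not matched for peak number: by the nearest-gene rule all genes had a median of 1 peak in each list, and the regulators 2.5 to 3.5. Genes with few peaks have less room to differ between lists. With 10 genes and no replicates these counts are a description.

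Overlapping peaks of the 4 lists were joined into 53883 merged regions, of which 66 belonged to the regulator genes. A peak of every list lay in 20 of the 66 regions (30.3%; 95% Wilson interval 20.6% to 42.2%, for counting error only), near the 26.9% of all regions. Among regions at promoters, defined by the annotation as 1 kb upstream to 100 bp downstream of a transcription start site (TSS), 7 of 17 were in all 4 lists, against 66.1% of all promoter regions. Elsewhere it was 13 of 49, against 16.0%. Counted by gene, 7 of the 10 had a promoter region in all 4 lists, against 72.3% of genes with a promoter peak, and 8 of 10 when peaks within 500 bp were joined, against 78.3%. The low share per region thus came with several promoter regions per gene, 5 of them at Pparg.

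Regions listed in 1 muscle alone numbered 2 of 33 in EDL, 11 of 44 in Quad, 12 of 44 in Sol and 5 of 29 in Dia. The backgrounds were 12.0%, 30.3%, 16.1% and 11.5% of all regions in the same order. The Sol share of the regulators was 27.3% and the Quad share 25.0%. These counts are small and no interval was computed for them, so no difference from the backgrounds is drawn. Of the 12 regions listed in Sol alone, 6 lay at Esrrg, so the Sol share rested largely on 1 gene. A region at Ppargc1a was the 1 listed in Sol and Dia without EDL and Quad (1.52%, against 1.20% of all regions), and 3 were in EDL and Quad without Sol and Dia, at Ppargc1a, Ppargc1b and Esrrb (4.55%, against 8.05%). By pair, the share of regions common to both lists was 60.4% between EDL and Quad (52.8% of all regions), 57.1% between EDL and Sol (53.7%), 49.2% between Quad and Sol (46.0%), 47.6% between EDL and Dia (47.6%), 46.0% between Quad and Dia (39.2%) and 46.0% between Sol and Dia (49.4%). Each share of all regions lay within the regulators' Wilson interval.

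Among the 20 regions of all 4 lists, the percentile was highest in EDL for 3, in Quad for 8, in Sol for 8 and in Dia for 1. The backgrounds were 18.4%, 57.4%, 17.7% and 6.49% for EDL, Quad, Sol and Dia, Quad being the longest list. Sol led at the 3 intronic regions of Esrrg in all 4 lists. Counting regions of any class in all 4 lists, it also led at 2 of 3 of Ppara and at 2 of 3 of Ppargc1a. For both genes these were the promoter and an intergenic region. The remaining Sol lead was at the Esrra promoter, at 99.43 against 99.41 in EDL. There the score itself was higher in EDL (31.1) than in Sol (30.3). Sol also led narrowly at the intergenic Ppargc1a region (76.2 against 75.4 in EDL) and the Ppara promoter (78.8 against 77.0 in Quad). Quad had narrow leads too, as at the Ppard promoter (92.4 against 92.2 in EDL).

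Ppargc1a, on chromosome 5 from 51454250 to 51567726 on the minus strand, encodes the coactivator PGC-1α. Positions are given below in kb from the annotated start of the gene, positive downstream. The main promoter, 13.78 kb inside the longest annotation and at the start of the coding transcript NM_008904, was listed in all 4 muscles. Its percentile was 30.1 in EDL, 46.5 in Quad, 39.2 in Dia and 49.99 in Sol, from 56, 49, 75 and 65 tags in EDL, Quad, Sol and Dia. It thus lay below the middle of each list, and the lowest rank was that of EDL. The medians of all promoter peaks were higher, at 76.3, 81.3, 75.7 and 74.1 in EDL, Quad, Sol and Dia. The upstream alternative promoter, of the transcript NR_132764, was weaker, at percentile 10.1 in EDL, 2.35 in Quad and 23.4 in Sol (44, 30 and 53 tags), and was not listed in Dia. Its peaks were centred at -218 to -241 bp from that start site, over the 3 NFAT words of the stretch shown. Its intervals of tags, 32.0 to 59.1 in EDL, 20.2 to 42.8 in Quad and 39.7 to 69.3 in Sol, overlapped.

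Most peaks of Ppargc1a lay far from either promoter. The best-scored region was intergenic, at +526.61 kb and beyond the end of the gene, and was listed in all 4 muscles at percentile 75.4 in EDL, 60.1 in Quad, 70.9 in Dia and 76.2 in Sol. Beside it, a region of Quad (40.0) and Sol (32.0) alone lay at +525.99 kb. A neighbour at +494.88 kb was also in all 4 lists, at 34.3, 28.0, 22.0 and 39.2 in EDL, Quad, Sol and Dia. No other protein-coding gene lay between: the next was Dhx15, 582.5 kb upstream, and Adgra3, 1395.2 kb downstream, so the nearest-gene rule gave Ppargc1a an unusually long stretch. Counting only the gene body and the 10 kb before it left 4 peaks in EDL, 5 in Quad, 2 in Dia and 4 in Sol.

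Within intron 2, a region at +33.05 kb was listed at percentile 71.3 in EDL, 57.9 in Quad and 64.6 in Sol, and not in Dia. Close to it, the region at +36.21 kb with the MEF2 and NR words was listed in EDL at 42.1 and Quad at 34.5 alone, and the nearest Sol peak was 2989 bp away. The opposite pattern was found at +127.67 kb, downstream of the gene, which was listed in Sol at 29.3 and Dia at 29.6 alone. A region at -28.11 kb was listed at 25.8 in Quad, 54.5 in Sol and 41.7 in Dia, and one at +176.19 kb at 40.0, 27.8 and 51.6 in the same muscles, both without EDL. Of the 7 Ppargc1a regions in 1 list, 3 were in Dia, 2 in Quad and 2 in Sol, and their percentiles ran from 7.89 to 44.8. The highest of them was in Sol, at +14.74 kb and 939 bp downstream of the main start site, with 70 tags.

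**Figure D2:**
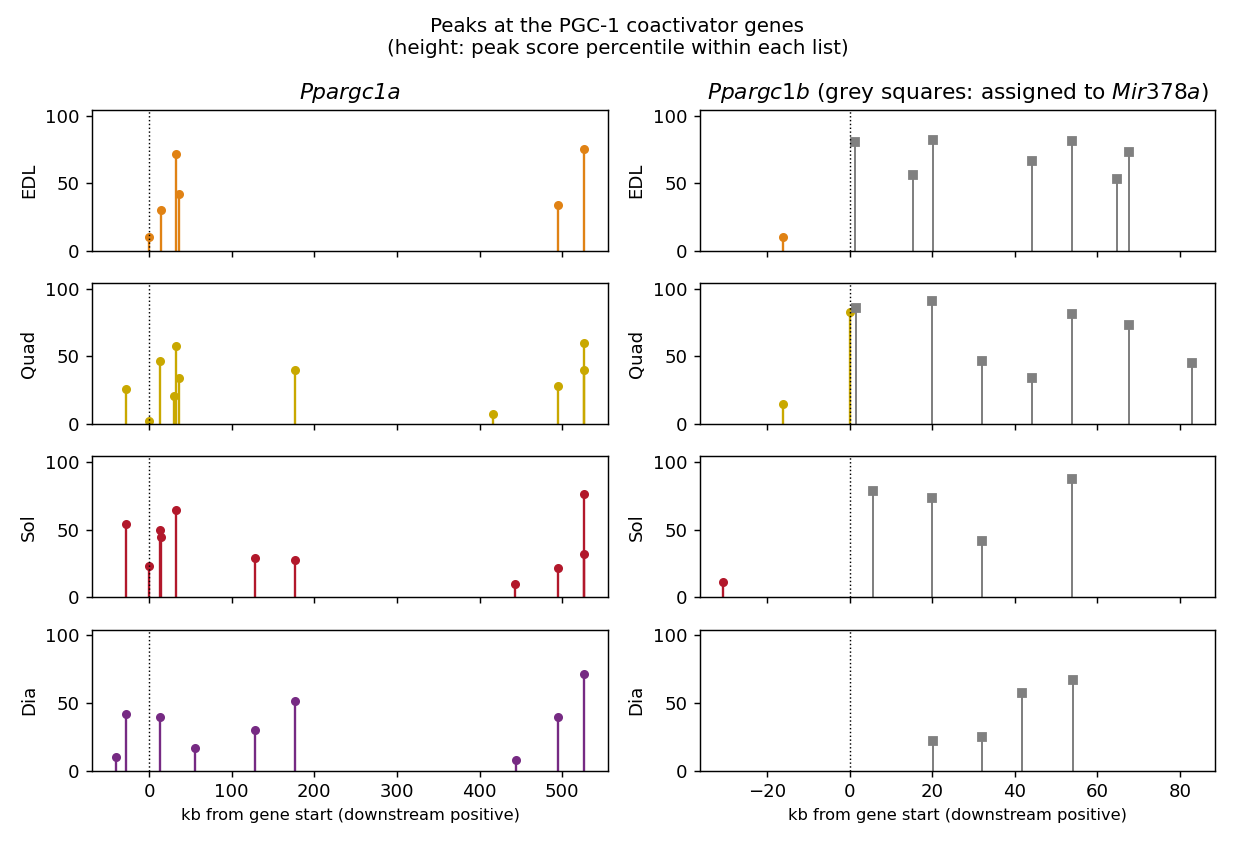
Peaks at Ppargc1a and Ppargc1b in 4 panels per gene, for EDL, Quad, Sol and Dia; the horizontal axis is the distance from the annotated gene start in kb and the height is the score percentile within the list. Grey squares mark peaks in the Ppargc1b gene body that the annotation assigned to Mir378a; at Ppargc1a the peaks at +494.88 and +526.61 kb were in all 4 lists, and the one at +36.21 kb in EDL and Quad alone.

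Ppargc1b, on chromosome 18 from 61298136 to 61400431 on the minus strand, encodes PGC-1β, the closest relative of PGC-1α. Its promoter was listed in Quad alone, at percentile 82.5 with 94 tags, centred at -27 bp from the start site. That was the highest percentile of any regulator region listed in 1 muscle alone. In EDL the nearest peak lay 1181 bp away, at percentile 80.7, in Sol 5362 bp away, at 78.3, and in Dia 19908 bp away. The EDL peak overlapped a further Quad peak in intron 1, at +1.42 kb and percentile 85.6. These neighbours were not among the 150 peaks, because the annotation assigned 22 peaks in the Ppargc1b gene body (7 in EDL, 7 in Quad, 4 in Dia and 4 in Sol) to Mir378a, a microRNA in its first intron. Of these, a region between +53.85 and +54.02 kb was listed in all 4 muscles, at 81.4 in EDL, 81.3 in Quad, 66.9 in Dia and 87.5 in Sol, and a region between +20.01 and +20.1 kb at 82.1, 90.8, 73.7 and 21.7 in EDL, Quad, Sol and Dia. Counted over the gene body and the 10 kb before it, Ppargc1b held 7 peaks in EDL, 8 in Quad, 4 in Dia and 4 in Sol, so its low counts came from the nearest-gene rule. The remaining assigned peaks, at -16.19 kb in EDL and Quad and at -30.63 kb in Sol, had percentiles of 10.1 to 14.95.

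Esrra, on chromosome 19 from 6910977 to 6921813, encodes ERRα, the estrogen-related receptor that PGC-1α both coactivates and induces. Its only region, the promoter, was among the strongest of each list, at percentile 99.4 in EDL, 99.3 in Quad, 98.4 in Dia and 99.4 in Sol. The peaks held 323, 242, 317 and 256 tags in EDL, Quad, Sol and Dia and were centred at -214 to -253 bp from the start site. The next highest regulator region was upstream of Ppard, at 95.7 in Quad.

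Esrrb, on chromosome 12 from 86361117 to 86521628, encodes ERRβ. At its first promoter the peaks were split between adjacent sites. A region at -0.16 kb was listed at percentile 36.4 in Quad and 40.5 in Dia, and a region at +0.38 kb, in the untranslated first exon, at 0.65 in EDL, 23.4 in Quad and 85.6 in Sol. The latter, described after its values were seen, had the widest range of percentiles of the regulator regions in more than 1 list. Its peaks held 38 tags in EDL (exact Poisson 95% interval 26.9 to 52.2), 37 in Quad (26.1 to 51.0) and 140 in Sol (117.8 to 165.2). Scaled to 10 M tags these were scores of 3.66, 4.74 and 13.4, and the Sol interval of 11.26 to 15.79 lay above those of EDL (2.59 to 5.02) and Quad (3.34 to 6.53), which cover counting error only. The region was picked with its values known, so the gap between these intervals is not a test between muscles. The 38 tags of EDL were also near the 34 of the lowest peak of that list. A MEF2 word and an E-box lay in the Sol window, and the nearest Dia peak was 281 bp away. With peaks within 500 bp joined, the Esrrb promoter was open in all 4 lists.

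The second Esrrb promoter, 60.49 kb inside, was listed in EDL at 10.1 and Sol at 33.4 alone. An intron 3 region at +137.77 kb was the only Esrrb region in all 4 lists, at 51.6 in EDL, 71.9 in Quad, 9.72 in Dia and 35.8 in Sol, so here Quad ranked highest. It carried a MEF2 word and an E-box in all 4 peak windows. The intron 2 region at +122.41 kb, with a pair of E-boxes in the Quad window, was listed in EDL at 8.31 and Quad at 61.1 alone, 15086 bp from the nearest Sol peak. A region at +72.32 kb was listed in EDL at 13.7 and Sol at 17.6 alone. The regions in 1 list alone were at +10.85 kb in Sol (30.7) and at +152.63 kb in EDL (37.0).

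Esrrg, on chromosome 1 from 187608791 to 188214885, encodes ERRγ, an ERR known for its high level in oxidative muscle. Its promoter at +389.02 kb was listed in all 4 muscles, and Sol ranked it lowest, at 44.3 in EDL, 40.0 in Quad, 21.7 in Dia and 8.21 in Sol. At each of the intronic regions in all 4 lists Sol instead ranked highest. At +36.63 kb the percentiles were 38.3, 50.8, 75.7 and 31.1 in EDL, Quad, Sol and Dia, at +228.17 kb they were 35.7, 64.9, 75.7 and 46.4, and at +310.37 kb they were 51.6, 41.8, 67.9 and 28.1. Sol alone listed 6 further intronic regions, at percentiles of 1.85 to 60.3, with 39 to 87 tags. The strongest lay at +299.27 kb with a pair of E-boxes, next to the region with 3 AP-1 words at +302.15 kb (33.4). Quad alone listed 4 regions at percentiles of 0.37 to 20.8, and EDL alone 1 at 8.31. The Quad region at +327.74 kb, at percentile 2.35, held the only full ERR word TCAAGGTCA among the 66 regions.

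**Figure D3:**
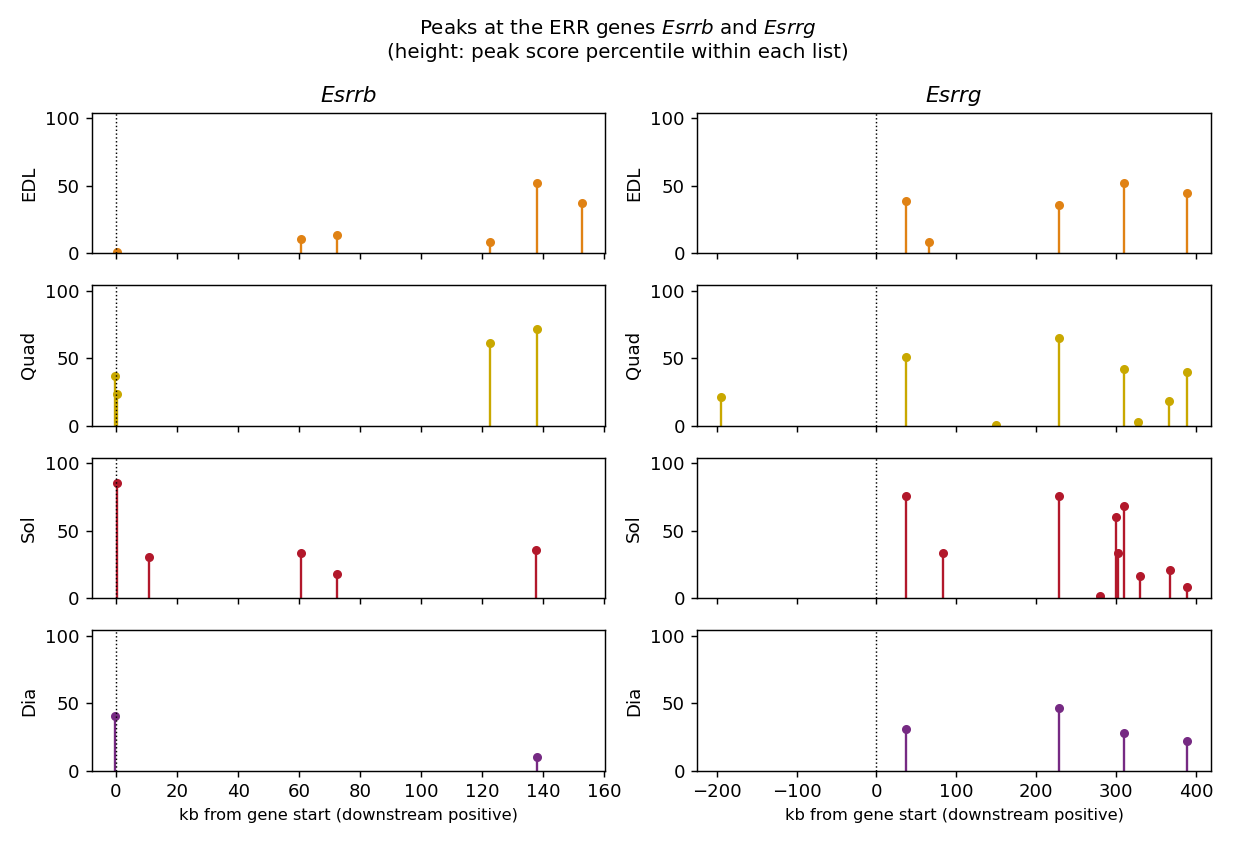
Peaks at Esrrb and Esrrg in 4 panels per gene, for EDL, Quad, Sol and Dia; the horizontal axis is the distance from the annotated gene start in kb and the height is the score percentile within the list. Esrrb had its tallest Sol peak at +0.38 kb (85.6), and Esrrg had its densest run of peaks in Sol between +279.25 and +330.52 kb.

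Ppara, on chromosome 15 from 85734983 to 85802819, encodes PPARα, a receptor for fatty acids that drives their oxidation. Its promoter region at +0.36 kb was listed in all 4 muscles, at 67.8 in EDL, 77.0 in Quad, 75.1 in Dia and 78.8 in Sol. Sol had a further peak at -0.40 kb, at percentile 80.8 with 124 tags, which no other list held, and the nearest peaks of the others were 530 to 552 bp away. The distal region at -9.97 kb was also highest in Sol, at 31.6, 30.2, 58.6 and 44.1 in EDL, Quad, Sol and Dia, and each of its windows held an NR word. Intron 2 at +21.83 kb went the other way, at 61.0 in EDL, 62.1 in Quad, 44.1 in Dia and 30.7 in Sol.

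Ppard, on chromosome 17 from 28232700 to 28301474, encodes PPARδ, the PPAR form most abundant in skeletal muscle. Of its 5 regions, 4 were in all 4 lists, and its counts were 5, 5, 5 and 4 in EDL, Quad, Sol and Dia. Counted over the gene body and the 10 kb before it, they were 8, 10, 6 and 6 in the same order, since further intronic peaks were assigned to Mir5098, Fance and 1810013A23Rik, so the near-equal counts were those of the nearest-gene rule. The promoter was at percentile 92.2 in EDL, 92.4 in Quad, 90.0 in Dia and 77.9 in Sol. The strongest region was at -8.48 kb, within the neighbouring gene Def6, at 92.5, 95.7, 92.8 and 89.7 in EDL, Quad, Sol and Dia. A further one in Def6, at -6.42 kb, was at 54.4 in EDL, 83.6 in Quad and 66.0 in Sol and was not listed in Dia. Intron 1 at +3.79 kb was at 85.7, 82.5, 81.3 and 74.6 in the same order. The MEF2-bearing intron 2 region at +15.11 kb was at 84.8 in EDL, 80.8 in Quad, 40.5 in Dia and 78.3 in Sol. All 5 regions held an E-box.

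Pparg, on chromosome 6 from 115360951 to 115490399, encodes PPARγ, the receptor that directs fat cell formation. Its peaks were mostly weak and seldom overlapped: of 9 regions, 7 were in 1 list. At the first promoters, Quad had peaks at +0.04 kb (41.8) and +1.28 kb (18.02), Dia at +0.26 kb (34.1) and Sol at +0.52 kb (11.4). These lay side by side, the Dia peak 1 bp from the nearer Quad peak and the Sol peak 43 bp from the Dia peak, whereas the nearest EDL peak was 70477 to 71711 bp away. The later start site, of NM_011146, had a peak in Dia alone (21.7), centred at -956 bp from it. The region in all 4 lists was at exon 6, +102.19 kb, at 31.6 in EDL, 56.8 in Quad, 52.5 in Dia and 41.6 in Sol. A region at +71.98 kb was listed at 20.6 in EDL, 14.95 in Quad and 27.8 in Sol. All 5 adipocyte markers had a peak in Dia, against 3 in EDL, 2 in Quad and 2 in Sol, and Adipoq and Cidec had one in Dia alone, whereas their peaks numbered 5 in both EDL and Dia. Their part in the Pparg peaks was not tested.

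**Figure D4:**
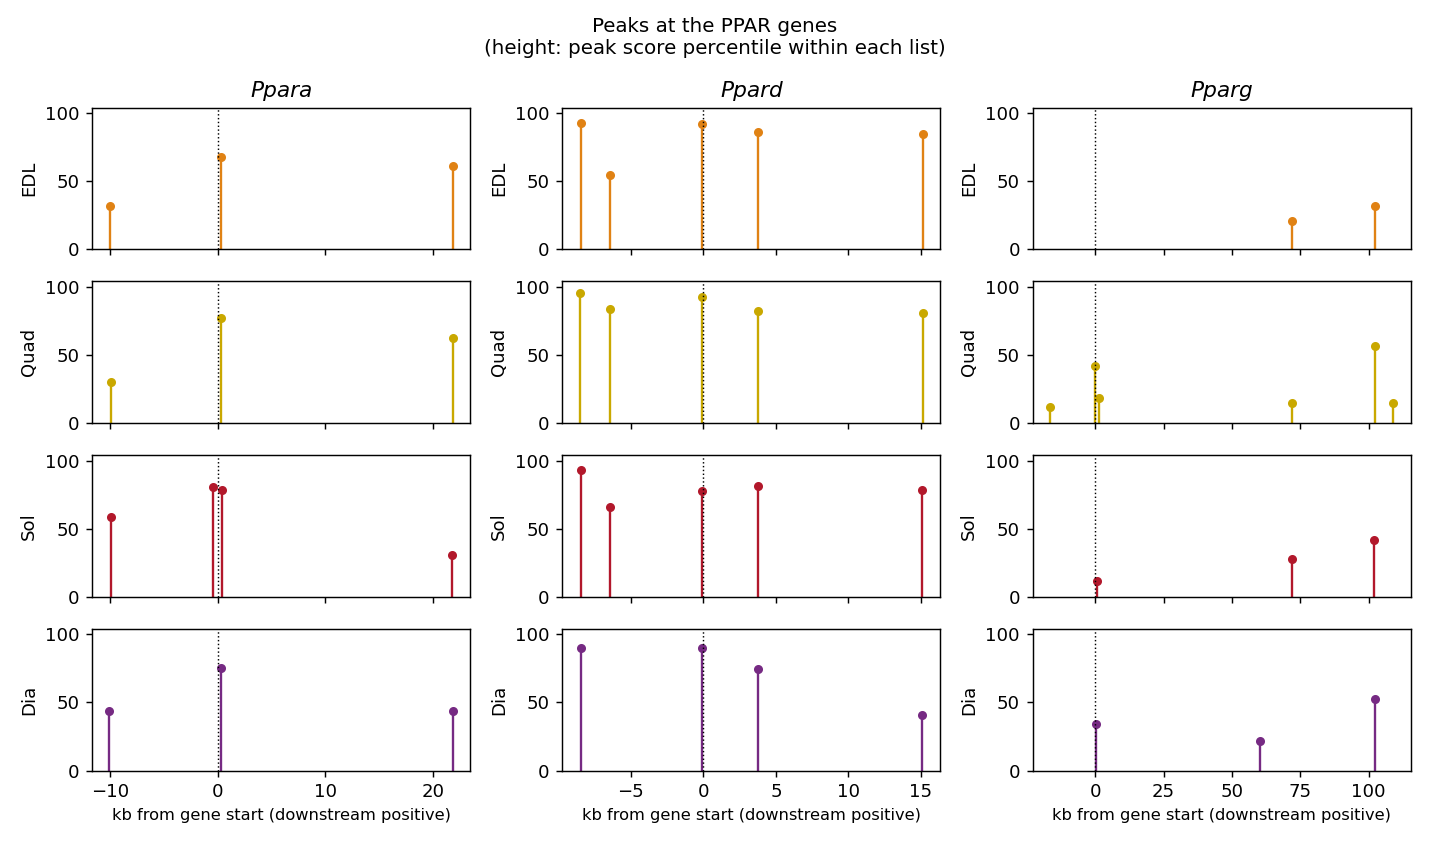
Peaks at Ppara, Ppard and Pparg in 4 panels per gene, for EDL, Quad, Sol and Dia; the horizontal axis is the distance from the annotated gene start in kb and the height is the score percentile within the list. Ppard had 5 peaks in each panel but that of Dia, which lacked the one at -6.42 kb and had a lower one at +15.11 kb (40.5), Ppara had a further promoter peak in Sol (80.8), and Pparg had none in EDL near its first start site.

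Nrf1, on chromosome 6 from 30047988 to 30153458, had a single region, at its start site, at percentile 84.3 in EDL, 87.2 in Quad, 78.0 in Dia and 82.7 in Sol. Tfam, on chromosome 10 from 71225464 to 71238280, had its promoter at 76.7, 77.5, 71.6 and 63.5 in EDL, Quad, Sol and Dia. The medians of all promoter peaks were 76.3, 81.3, 75.7 and 74.1 in EDL, Quad, Sol and Dia. Nrf1 lay above them in every list, and Tfam in EDL alone. The order of the lists at each promoter was Quad, EDL, Sol and Dia, which was also the order of these medians. Upstream of Tfam, a region at -13.74 kb was listed in all 4 muscles with a wider spread, at 38.3 in EDL, 76.4 in Quad, 4.66 in Dia and 37.0 in Sol. Its neighbour at -12.27 kb was at 43.2, 36.4 and 38.2 in EDL, Quad and Sol and was not listed in Dia.

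**Figure D5:**
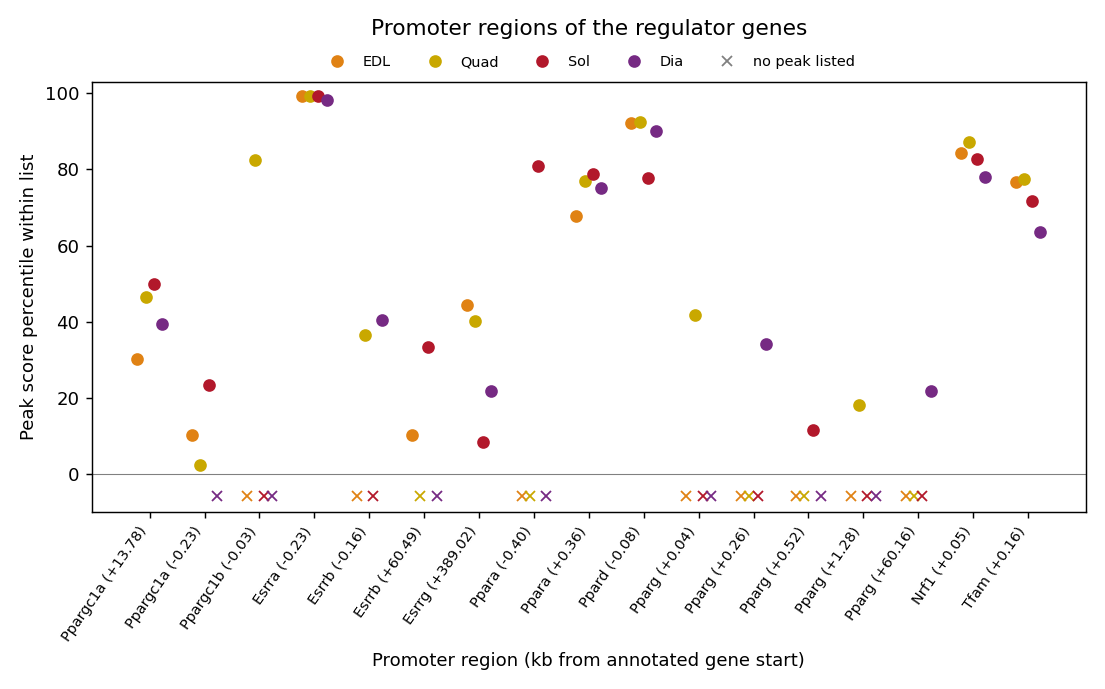
Score percentile within the list (vertical axis) of each promoter region of the 10 genes (horizontal axis, with its distance in kb from the annotated gene start) in EDL, Quad, Sol and Dia; a cross below 0 marks a list without a peak. The Esrra, Nrf1, Tfam and Ppard promoters sit at 63.5 or above in every list, and those of Ppargc1a, Esrrb, Esrrg and Pparg at 49.99 or below. The Esrrb region at +0.38 kb (85.6 in Sol), annotated as untranslated exon and not as promoter, is not shown.

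The peaks of the 10 genes that were themselves annotated as promoter numbered 8 in EDL, 12 in Quad, 10 in Dia and 10 in Sol. Their median percentile was 56.0, 61.7, 60.8 and 52.0 in EDL, Quad, Sol and Dia. All promoter peaks, counted in the same way, gave 76.3, 81.3, 75.7 and 74.1 in the same order. The Nrf1 peaks of EDL (84.3) and Sol (82.7), annotated as intron and 5' UTR, were left out of this count. Their merged region had counted as a promoter, since other peaks in it were so annotated. Both lay above the regulators' promoter median of their list. Over all peaks of the 10 genes the median was 42.1, 40.9, 39.9 and 40.5 in EDL, Quad, Sol and Dia, against 49.4 or more over each whole list. Peaks more than 50 kb from the nearest start site were 7 of 33 in EDL, 12 of 44 in Quad, 13 of 44 in Sol and 8 of 29 in Dia (21.2% to 29.5%), and 16.3% to 23.0% of all peaks. The distant ones belonged to Ppargc1a, Esrrb and Esrrg.

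Short sequence words were searched on both strands in the 200-bp windows around the peak centres, and a region counted once if any of its windows held the word. The E-box, the core that myogenic factors can bind, was in 24 of the 66 regions (36.4%), against 23.1% of all regions. By list, 36.4% to 41.4% of the regulators' windows held it, against 17.2% to 20.1% of all and 21.8% to 24.3% of those outside promoters. The NR word was in 10 regions (15.2%, against 5.76%), 4 of them at Ppargc1a, and the MEF2 word in 6 (9.09%, against 4.32%), 3 at Ppargc1a, 2 at Esrrb and 1 at Ppard. The NFAT word was in 21 regions (31.8%, against 21.4%), 10 of them among the 17 at Ppargc1a. The AP-1 word was in 4 regions (6.06%, against 8.36%), and the CRE (1.52%, against 1.21%) and the ERR word (1.52%, against 0.481%), which contains the NR word, were in 1 each. The NRF1 word GCGCATGCG was in none, and all regions gave 0.873%. These matches show letters and not binding, and regions with several windows had more sequence searched.

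In the RefSeq promoter sequences, which run from 250 bases before to 50 after a start site, 9 of the 10 genes matched with 16 promoters. The Ppargc1a promoter there, of the upstream start site, held 3 NFAT words, and 21.4% of the 32851 promoters held at least 1. Esrrg at its first start site held a MEF2 word (1.86% of promoters), an AP-1 word (5.20%) and an NFAT word, but no peak was listed there. The Ppara promoter sequence held overlapping NRF1 words on opposite strands (1.75% of promoters). That sequence began at 85735526, past the end of the listed promoter region at 85735466, so no peak covered it. Ppard held a pair of E-boxes (16.3%).

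Genes that act with these regulators were described in the same way. The 27 partners and upstream genes, which are other PGC-1 family members, retinoid X receptors, kinases, corepressors and coactivators, held 80 peaks in EDL, 107 in Quad, 54 in Dia and 71 in Sol. Between Quad and Sol, 12 of the 25 with a peak in either list had more in Quad (48.0%) and 3 had more in Sol (12.0%), near the 47.6% and 13.0% of all genes. Rxra, the partner receptor of the PPARs, had 11 peaks in Quad and 3 in Sol, and Lpin1 had 12 and 6. The 3 in the other direction, Perm1, Prkaa2 and Ncor1, differed by 1 peak each. The 18 target genes of fatty acid and glucose use held 42, 56, 45 and 33 peaks in EDL, Quad, Sol and Dia, and of the 17 with a peak in Quad or Sol 8 had more in Quad (47.1%) and 6 had more in Sol (35.3%), against the same backgrounds. Pdk4, which restrains glucose oxidation, and Fabp3, a fatty acid carrier, had 6 peaks in Quad and 2 in Sol each, whereas Cd36, a fatty acid transporter, had 8 in Quad and 11 in Sol. Ucp3 and Lpl followed in the Quad direction, with a difference of 3 each, and Hadha, Cycs, Fndc5, Plin2 and Plin5 had 1 more in Sol. The median was 1 or 2 peaks a gene in each list for the partners and 1 to 2 for the targets, against 1 for all genes and 2.5 to 3.5 for the regulators.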

How the data were processed

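ATAC-seq peak lists of EDL, Quad, Sol and Dia, 1 library each and without separate replicates here, were analysed. Per the methods and the submitters' processing notes, the authors aligned 42-bp read pairs to mm10 with Bowtie2 2.2.6 at default settings, which place a read that fits several sites at one of them, and called fixed-width peaks in each library with HOMER, keeping at most 1 tag per position. Treatment of the Tn5 offset and of mitochondrial reads is not given in the sources used here. The deposited peak score is a signal, a tag count scaled to library size by the authors. All scores below 10 were whole multiples of 1 step within 0.0055, which gave the tags per peak if scores are scaled to 10 M tags. The deposited annotation gave the nearest gene, the class and the distance to the TSS. Scores were compared as percentiles within a list.

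Peaks overlapping by at least 1 bp were merged across lists. Gene bodies came from GENCODE vM21 and sequences from RefSeq GRCm38.p6. Merging and word searches were tested on simulated data. Python 3.11.15, pandas 2.3.3, numpy 2.4.6 and scipy 1.17.1 were used. Wilson and exact Poisson 95% intervals cover counting error only. No p-value was computed. Alternatives were the 20000 highest-scored peaks of a list, its upper 50%, peaks within 50 kb of a TSS, gene bodies with 10 kb upstream, reciprocal overlap of 50% and joining within 500 bp. The text names all 10 genes in every muscle, their regions at promoters, in all 4 lists, in paired muscles or in 1 list, and the 3 partners and targets that differed most between Quad and Sol in each direction. Members and lists were chosen with earlier results of these data known.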

Additional observations from a re-analysis of the deposited data

How the results depend on the processing

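When each list was cut to its 20000 highest-scored peaks, the regulator genes held 19 peaks in Quad and 12 regions in all 4 lists, against 44 and 20 in the full lists. With the upper 50% of each list by score they held 14 peaks in EDL, 19 in Quad, 10 in Dia and 19 in Sol, and 8 regions were in all 4 lists. These settings keep fewer peaks by construction. The other totals under both settings, and the totals and shared percentages under the 50 kb limit, the gene-body rule, reciprocal overlap and joining within 500 bp, stayed within 1.5 times the reported count or within its Wilson interval. Of the 40 counts per gene and muscle, 13 moved by more than 1.5 times with the 20000 highest-scored peaks, 23 with the upper 50%, 10 with the 50 kb limit and 13 with the gene-body rule. No paired analysis was possible because each muscle had 1 library and no test was made. With 1 library a muscle, biological spread is unknown, and the depth of the Quad library was the lowest.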
